A study of Homo sapiens with 16 samples.

Results

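The basal and stratified epithelial keratins considered here are KRT1, KRT4, KRT5, KRT6A and KRT6B, which are type II keratins, and KRT13, KRT14, KRT15, KRT16 and KRT17, which are type I keratins. They were taken by gene name from the deposited tables, and all 10 were found once each among the 58721 genes listed. RNA was read from transcript ends (3' mRNA sequencing) in 16 libraries of 2 bladder cancer cell lines. RT112, grown in RPMI with 10% FBS, is of the luminal papillary type, and SCaBER, grown in DMEM with 10% FBS, is of the basal/squamous type. Within each line, cells were reverse transfected for a short term with siControl.1, siControl.2, siFOXA1.1 or siFOXA1.2 at 10 nM per the labels, and each siRNA has 2 libraries that are numbered as experiment batch replicates. No untransfected library is in the set, so each value is from cells that took up an siRNA, and line and medium cannot be told apart.

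Keratins are the intermediate filament proteins of epithelia, and a filament forms only when a type I and a type II keratin pair. KRT5 and KRT14 are the pair of the basal layer of stratified epithelia, and KRT15 is a further type I keratin of basal cells. KRT4 and KRT13 are the pair of the layers above the basal layer in moist, non-cornifying epithelia, such as oesophagus, and KRT13 is also found in urothelium. KRT1 marks the layers above the basal layer of epidermis, and KRT6A, KRT6B, KRT16 and KRT17 are raised in wounded or hyperproliferative epithelium. In bladder tumours KRT5, KRT6A and KRT14 are used as markers of the basal type.

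In the RefSeq annotation of GRCh38.p14, the type II members lie on chromosome 12 between KRT6B (52446651 to 52452146) and KRT4 (52806549 to 52814116). KRT6A (52487176 to 52493257), KRT5 (52514575 to 52520394) and KRT1 (52674736 to 52680407) lie between them. The type I members lie on chromosome 17, in the order KRT13 (41500981 to 41505612), KRT15 (41513745 to 41518890), KRT14 (41582279 to 41586895), KRT16 (41609778 to 41612767) and KRT17 (41619442 to 41624575). A RefSeq promoter sequence was at hand for 2 of the 10 members, KRT4 and KRT5. Both are shown, since the other members had none at hand. Each covers 250 bases before and 50 bases from the annotated start on, on the minus strand, and is written 5′ to 3′. Capitals mark the E-box letters CANNTG and, in KRT4, a single match to the AP-2 letters GCCNNNGGC.
KRT4 (GRCh38.p14, chr12:52814067-52814366): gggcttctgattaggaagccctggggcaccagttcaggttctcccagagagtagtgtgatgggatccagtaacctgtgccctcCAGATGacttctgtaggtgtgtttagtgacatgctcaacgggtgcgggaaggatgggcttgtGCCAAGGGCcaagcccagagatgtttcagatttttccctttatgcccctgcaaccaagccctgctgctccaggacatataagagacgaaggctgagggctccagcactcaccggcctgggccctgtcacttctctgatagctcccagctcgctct
KRT5 (GRCh38.p14, chr12:52520345-52520644): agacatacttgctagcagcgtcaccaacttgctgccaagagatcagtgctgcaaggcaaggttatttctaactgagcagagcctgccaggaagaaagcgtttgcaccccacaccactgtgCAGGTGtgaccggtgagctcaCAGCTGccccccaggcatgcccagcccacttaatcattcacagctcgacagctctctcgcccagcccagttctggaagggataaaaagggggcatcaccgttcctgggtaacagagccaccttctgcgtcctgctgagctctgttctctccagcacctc

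The 2 windows were searched on both strands for 8 short motifs. KRT4 held 1 E-box (bases -167 to -162 from the start) and 1 AP-2 match (-105 to -97), and KRT5 held 2 E-boxes (-130 to -125 and -109 to -104). An E-box was found in 68.7% and an AP-2 match in 23.2% of the 35116 RefSeq promoters of the same length. In KRT4 the AP-2 match and the E-box did not overlap. The letters of the forkhead motif, TGTTTNC, were in neither window and in 18% of all promoters. The same held for the TATA box, whose letters TATAAA were in 11.5% of promoters. It held for the AP-1 letters TGANTCA, found in 7.71% of promoters. The GC box, searched as GGGCGG, was likewise in neither window and in 45% of promoters. The STAT letters TTCNNNGAA were in 7.66% of promoters and in neither window. The GATA letters AGATAA were in 10.3% of promoters and in neither window. These matches are descriptions of letters and not sites of binding.

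FOXA1, the forkhead factor that the siRNAs target, is given in CPM, counts per 1000000 counts of the library. It had 35.0 and 29.4 CPM under siControl.1 in RT112 and 18.2 and 28.4 CPM under siControl.2, and then 1.32 and 3.24 CPM under siFOXA1.1 and 9.18 and 16.0 CPM under siFOXA1.2. The groups did not overlap, but only siFOXA1.1 passed the edgeR test: its log2 change against both controls was -3.45 ± 0.47 (standard error, SE, with adjusted p = 1.39e-05), whereas siFOXA1.2 gave -1.10 ± 0.39 (adjusted p = 0.215). With 1 library left out in turn, the siFOXA1.2 change ranged from -1.56 to -0.76. In SCaBER the controls held 3, 4, 15 and 9 FOXA1 counts and the siFOXA1 libraries 0, 3, 0 and 6 counts. A floor of 3 counts per library was taken as the limit of detection, so that the knock-down could hardly be measured in SCaBER at this depth.

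Library totals were 6622473 to 7604581 counts in RT112 and 4528513 to 6914951 counts in SCaBER, so that 3 counts stand for at most 0.453 CPM in RT112 and 0.662 CPM in SCaBER. Luminal markers, with FOXA1 among them, summed to 809 to 1630.5 CPM in RT112 and 162 to 251 CPM in SCaBER. All 7 of those tested were higher in RT112 under siControl, where 43.4% of all genes tested were called in either direction. Basal markers other than keratins summed to 432 to 887 CPM in RT112 and 2415 to 3442 CPM in SCaBER. Under siControl 6 of 7 were lower in RT112, against the same 43.4%. PTPRC, CD3E, COL3A1 and DCN were at 0 in all 16 libraries. The 6 leukocyte markers summed to at most 5.49 CPM and the 8 markers of fibroblasts and endothelium to 91.5 to 153 CPM in RT112 and 10.0 to 46.1 CPM in SCaBER. LUM reached 137 CPM and COL1A1 56.5 CPM, and COL1A1 averaged 55.2 CPM under siFOXA1.1 in RT112 against 8.76 CPM in the controls. Under siFOXA1.1, 10 of 12 interferon-response genes were higher and 9 of 10 proliferation genes lower in RT112, where 29.1% of all genes were called. In SCaBER 11 of 12 were higher and 9 of 10 lower, where 7.87% of all genes were called. The interferon list summed to 291 to 340.2 CPM in the RT112 controls, 2423 and 2075 CPM under siFOXA1.1 and 263 and 334 CPM under siFOXA1.2. In SCaBER it summed to 1488 to 2489 CPM in the controls, 7788 and 10269 CPM under siFOXA1.1 and 1355 and 1334 CPM under siFOXA1.2. The proliferation list summed to 2844 to 3365 CPM in the RT112 controls and 733 and 385 CPM under siFOXA1.1, and to 2551 to 3335 CPM in the SCaBER controls and 1551 and 857 CPM under siFOXA1.1. Mitochondrial genes took 17.99% to 21.2% of counts in the RT112 controls, 25.7% and 28.2% under siFOXA1.1 and 19.7% and 20.4% under siFOXA1.2. The part of these 3 measures in the keratin values below was not tested.

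**Figure D1:**
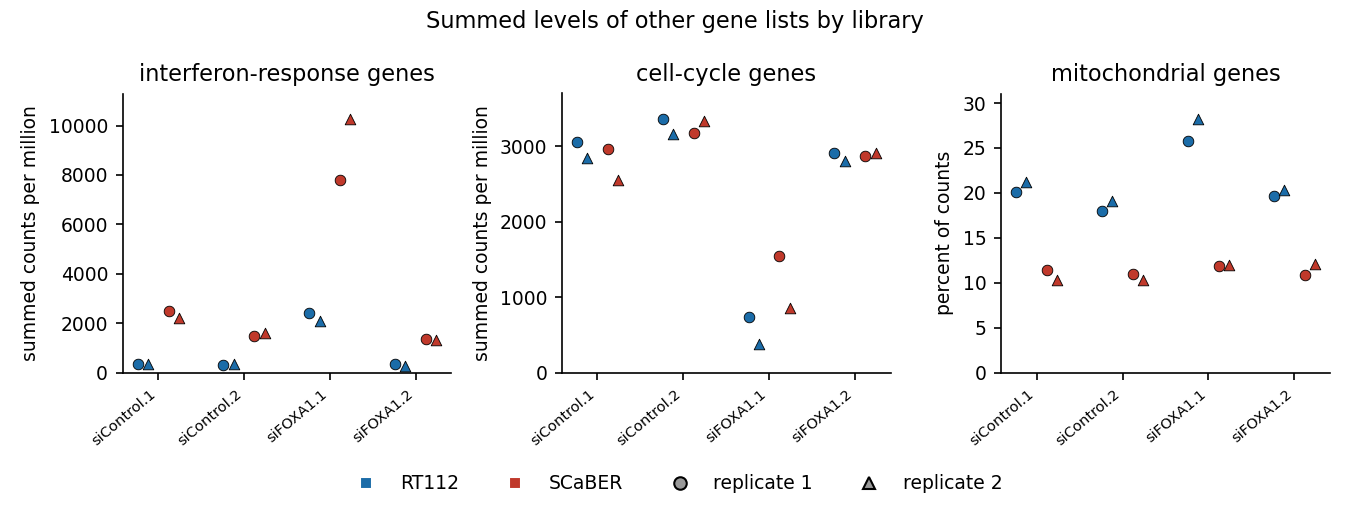
Summed level of the interferon-response list and of the proliferation list in CPM, and the percent of counts from mitochondrial genes (linear axes from 0), for each of the 16 libraries by siRNA, with RT112 in blue and SCaBER in red and the symbol giving the replicate number. The siFOXA1.1 libraries stand apart from the controls of their line in the first and second panel in both lines, and in the third in RT112, where they reach 25.7% and 28.2%.

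Under the control siRNAs the 2 lines used different keratins. Levels between genes are compared in TPM, the authors' values of transcripts per 1000000 transcripts, which divide by gene length; since the kit reads ends only, division by length may not suit these reads. In RT112, KRT13 stood highest at 3526 ± 391 TPM (SD, n = 4 throughout this paragraph) and its partner KRT4 was next at 537 ± 116 TPM. KRT17 followed at 316 ± 43.0 TPM, and these 3 did not overlap with each other or with the next gene over the 4 libraries. KRT5 (53.8 ± 14.5 TPM) and KRT16 (44.1 ± 7.07 TPM) overlapped, as did KRT15 (6.93 ± 2.38 TPM), KRT1 (4.61 ± 1.77 TPM), KRT6A (3.59 ± 2.94 TPM) and KRT14 (2.7 ± 0.503 TPM) each with the next. KRT6B had a single count in the 4 RT112 control libraries. KRT13 made up 78.5% of the mean TPM of the 10 keratins in RT112, and KRT4 11.9%.

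In SCaBER, KRT17 was at 1083 ± 228 TPM, KRT6A at 797 ± 244 TPM, KRT14 at 607 ± 185 TPM, KRT5 at 344 ± 77.6 TPM and KRT6B at 151 ± 86.5 TPM (SD, n = 4). The ranges of neighbours among these 5 overlapped over the 4 libraries, although the order was the same within each library, and KRT6B did not overlap with KRT16, the next gene. KRT16 (31.2 ± 16.4 TPM), KRT15 (17.7 ± 9.44 TPM) and KRT13 (8.59 ± 8.67 TPM) were lower and overlapped in turn. KRT1 and KRT4 had 0 counts in the 4 SCaBER controls, and over all 8 SCaBER libraries KRT1 had 0 counts and KRT4 had 1.

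**Figure D2:**
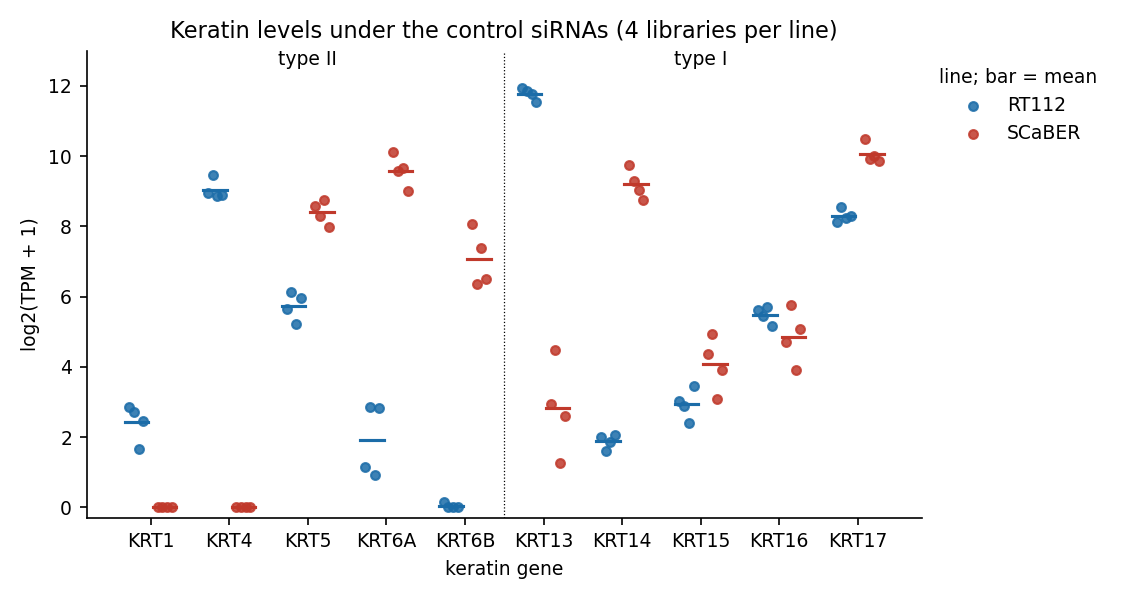
Level of each keratin as log2(TPM + 1) in the 4 siControl libraries of RT112 (blue) and of SCaBER (red), 1 point per library with a bar at the mean, type II keratins left of the dotted line and type I right of it. KRT13 and KRT4 lie high in RT112 and low or at 0 in SCaBER, KRT6A, KRT6B and KRT14 lie the other way round, and KRT15 and KRT16 overlap between the lines.

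Between the lines under siControl, all 10 keratins passed the edgeR test (4 higher and 6 lower in RT112), where 43.4% of the 12309 genes tested did. KRT13 had 4367 to 5992 CPM in RT112 and 1.56 to 24.5 CPM in SCaBER, a log2 difference of 9.04 ± 0.56 (adjusted p = 1.18e-08). KRT4 was at least 1710.0-fold and KRT1 at least 11.0-fold higher in RT112, taking the floor of 3 counts per library for SCaBER, where both were at 0. KRT14 (-7.41 ± 0.28, adjusted p = 7.89e-11) and KRT6A (-7.43 ± 0.47, adjusted p = 1.52e-08) were lower in RT112. For KRT6B, 1 count in the RT112 controls against 3201 in the SCaBER controls gives a ratio of 4007, with an exact 95% counting interval of 719 to 158315.

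The other basal keratins differed less. KRT5 was at 81.7 to 146 CPM in the RT112 controls and 421 to 695 CPM in the SCaBER controls, a log2 difference of -2.29 ± 0.19 (adjusted p = 2.13e-07). KRT17 was at 454 to 579 CPM against 1125 to 1784 CPM (-1.39 ± 0.15, adjusted p = 3.19e-06). KRT15 (-0.98 ± 0.36, adjusted p = 0.0393) and KRT16 (0.90 ± 0.33, adjusted p = 0.037) overlapped between the lines. Both lost their call when single libraries were left out: KRT15 with each of 5 libraries left out in turn (adjusted p up to 0.181) and KRT16 with each of 6 (up to 0.097). KRT16 also lost it by limma on log2(TPM + 1) (0.62, adjusted p = 0.138). With the replicate number as a block, KRT15 was at -0.85 (adjusted p = 0.064).

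In RT112 the KRT4 and KRT13 pair and KRT1 were lower under siFOXA1.1 than under the controls. KRT13 had 5992 and 5378 CPM under siControl.1, 5278 and 4367 CPM under siControl.2, and 1199 and 819.7 CPM under siFOXA1.1. KRT4 had 859 and 811 CPM under siControl.1, 1156 and 792 CPM under siControl.2, and 179 and 120.2 CPM under siFOXA1.1. Both siFOXA1.1 libraries lay far below the lowest control for each gene. The log2 fold change against both controls was -2.26 ± 0.12 for KRT13 (adjusted p = 7.58e-11) and -2.48 ± 0.17 for KRT4 (adjusted p = 2.61e-09). KRT1 had 62, 19, 51 and 40 counts in the controls and 0 counts in both siFOXA1.1 libraries, which puts it at least 13.3-fold lower against the floor of 3 counts per library (adjusted p = 0.000147).

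Of the 9 keratins tested in this comparison, 3 were lower, 1 was higher and 5 did not pass the test, a share to be read against the 29.1% of 13462 genes that passed it. The median log2 change was -0.35 over the 9 keratins and -0.02 over all genes tested. Here and below, a p-value measures only the spread between the libraries, since the labels do not say that the replicates came from separate cultures. In bulk RNA, fewer cells that make a keratin and less of its RNA per cell cannot be told apart.

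KRT5, the type II keratin of the basal layer, was the 1 member called higher. It had 109.8 and 81.7 CPM under siControl.1, 146 and 131 CPM under siControl.2, and 126 and 234 CPM under siFOXA1.1. Only replicate 2 of siFOXA1.1 lay above the controls. The log2 fold change was 0.78 ± 0.19 (adjusted p = 0.00458), and it was 0.22 (adjusted p = 0.437) without that library and 0.39 (adjusted p = 0.258) by limma on log2(TPM + 1). On log2(CPM + 1), the within-batch change was -0.01 in replicate 1 and 1.17 in replicate 2.

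The partner of KRT5, KRT14, was near the floor in RT112, with 27, 21, 17 and 26 counts in the controls and 0 and 9 counts under siFOXA1.1, and it did not pass the test (-2.07 ± 1.30, adjusted p = 0.251). Without replicate 2 of siFOXA1.1, whose 9 counts are the only ones in that group, KRT14 was called (adjusted p = 0.0164). KRT17 had 454, 493, 579 and 488 CPM in the controls and 395 and 441 CPM under siFOXA1.1. It lay below all controls, but by -0.14 ± 0.11 (adjusted p = 0.388). KRT15 ranged over 16.0 to 35.4 CPM in the controls and 17.6 to 19.3 CPM under siFOXA1.1, KRT16 over 42.9 to 66.1 CPM and 37.9 to 52.4 CPM, and neither passed the test.

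**Figure D3:**
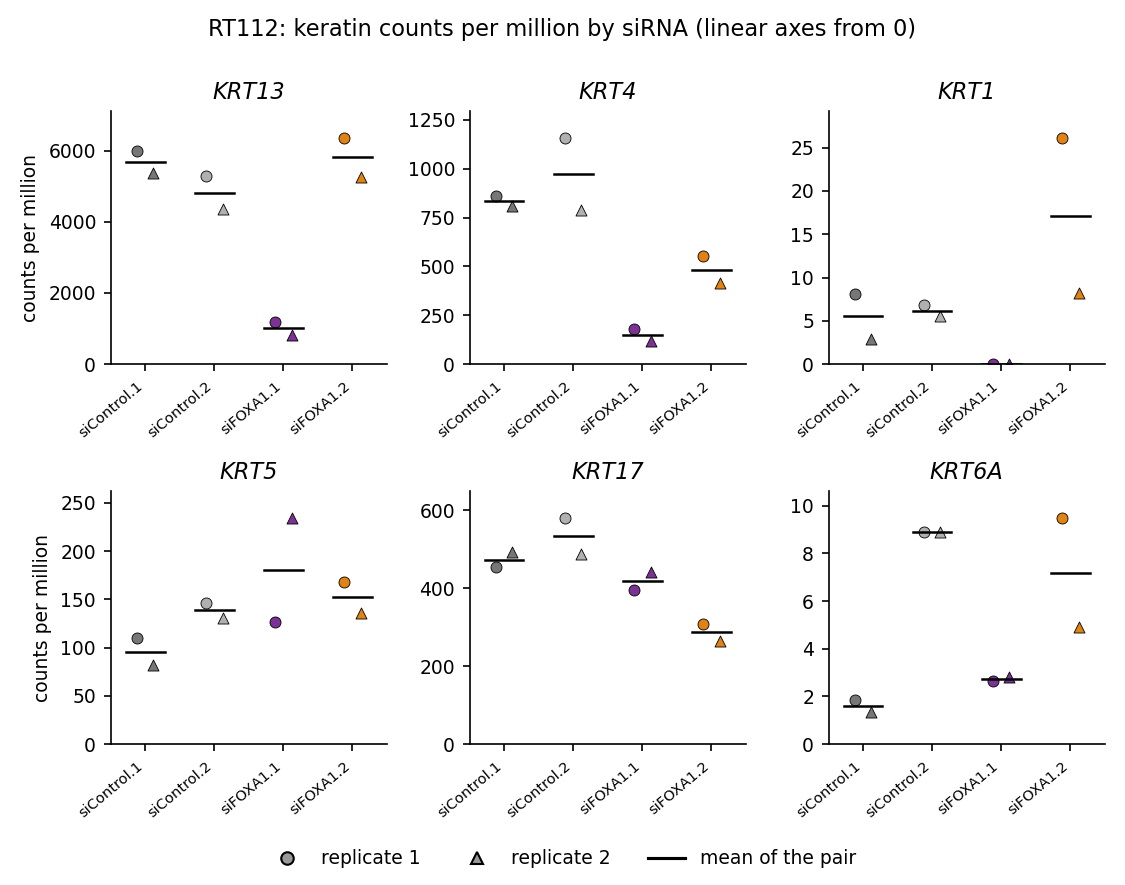
CPM of 6 keratins in the 8 RT112 libraries by siRNA (linear axes from 0), circles for replicate 1, triangles for replicate 2 and a bar at the mean of the pair. KRT13 drops to 819.7 to 1199 and KRT4 to 120.2 to 179 under siFOXA1.1 and KRT1 to 0, KRT5 is raised in replicate 2 alone, and KRT17 is lowest under siFOXA1.2.

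siFOXA1.2, which left more FOXA1, gave a different keratin profile in RT112. KRT4 was at 556 and 413 CPM, between the controls and siFOXA1.1 and without overlap with either, a log2 fold change of -0.88 ± 0.16 against both controls (adjusted p = 0.00383). By limma on log2(TPM + 1) KRT4 was at -0.90 (adjusted p = 0.193). KRT17 was at 309 and 265 CPM, below every control and every siFOXA1.1 library, with a change of -0.79 ± 0.12 (adjusted p = 0.000601). KRT13 was at 6349 and 5272 CPM and overlapped the controls. KRT1 was at 26.1 and 8.19 CPM, both above the highest control at 8.15 CPM, and did not pass the test (1.57 ± 0.58, adjusted p = 0.247, or 0.0212 when a siFOXA1.1 library was left out, but 0.51 and adjusted p = 0.981 without siFOXA1.2 replicate 1). Of 9 keratins tested, 2 were lower and 0 higher, where 1.78% of all genes tested were called. Within replicates 1 and 2 the change of log2(CPM + 1) was -0.84 and -0.95 for KRT4 and -0.73 and -0.89 for KRT17.

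Set directly against each other in RT112, the siRNAs differed in 4 of 9 keratins, where 24.7% of all genes did. KRT13 (-2.42 ± 0.13, adjusted p = 2.73e-10) and KRT4 (-1.59 ± 0.18, adjusted p = 2.3e-06) were lower under siFOXA1.1 than under siFOXA1.2, and KRT1 was at least 38.9-fold lower. KRT17 was higher under siFOXA1.1 (0.65 ± 0.13, adjusted p = 0.0011; by limma on log2(TPM + 1) 0.36, adjusted p = 0.0857). The comparisons of the 2 siRNAs with the controls share the 4 control libraries. Per length, KRT4 went from 537 ± 116 TPM (SD, n = 4) in the controls to 78.0 ± 24.7 TPM under siFOXA1.1 and 285 ± 60.6 TPM under siFOXA1.2 (SD, n = 2 each), and KRT13 from 3526 ± 391 TPM to 599 ± 183 TPM and 3887 ± 526 TPM.

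The control siRNAs give the background for these differences. In RT112, 0 of 9 keratins were called between siControl.1 and siControl.2, where 2.11% of all genes were. None was called by DESeq2, and 2 had an unadjusted p under 0.05, as 12.2% of all genes did. KRT6A had 14 and 9 counts under siControl.1 and 67 and 64 counts under siControl.2, with no overlap (-2.40 ± 0.80, adjusted p = 0.157, or 0.0384 and 0.0382 without either siFOXA1.1 library). Under siFOXA1.1 it had 18 and 19 counts and under siFOXA1.2 65 and 36 counts, so its siFOXA1 values lay within the range of the controls but for 65 counts, or 9.47 CPM. KRT13 differed by 0.30 ± 0.12 between the controls (adjusted p = 0.32). With the replicate block KRT13 was called between the controls at the same 0.30 (adjusted p = 0.0133), so the count rose from 0 to 1. It was also called without siControl.2 replicate 1 (0.45, adjusted p = 0.0194) and, together with KRT6A, without either siFOXA1.1 library, which brought the count to 2.

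When the siRNAs of a target were pooled, 0 of 9 keratins passed in RT112 by edgeR (0.108% of all genes did), 2 had an unadjusted p under 0.05 (12.1% of all genes had) and 1 passed by DESeq2. KRT4 was at -1.47 ± 0.37 with adjusted p = 0.231 by edgeR, 0.00973 by DESeq2 and 0.00656 without the filter on low counts, and its 4 siFOXA1 libraries at 120.2 to 556 CPM lay below the lowest control at 792 CPM.

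In SCaBER the members called under siFOXA1.1 were KRT17 and KRT6B. The other members raised in wounded epithelium, KRT6A (0.05 ± 0.22, adjusted p = 0.936 by edgeR) and KRT16 (0.48 ± 0.44, adjusted p = 0.599), were not called. KRT17 had 1784 and 1201 CPM under siControl.1, 1205 and 1125 CPM under siControl.2, and 3821 and 2962 CPM under siFOXA1.1. KRT6B had 245 and 142 CPM under siControl.1, 74.2 and 79.1 CPM under siControl.2, and 528 and 289 CPM under siFOXA1.1. In neither gene did the siFOXA1.1 libraries overlap with the controls. The log2 fold change was 1.40 ± 0.18 for KRT17 (adjusted p = 0.000181) and 1.78 ± 0.28 for KRT6B (adjusted p = 0.00109). Within replicates 1 and 2, the change of log2(CPM + 1) was 1.38 and 1.35 for KRT17 and 1.96 and 1.44 for KRT6B.

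These were 2 of the 8 keratins tested in SCaBER, where 7.87% of 13407 genes were called. KRT17 made up 34.0% to 40.97% of the summed TPM of the 10 keratins in the SCaBER controls and 52.1% and 55.9% under siFOXA1.1. KRT6A, whose protein is nearly the same as that of KRT6B, had 1299, 895, 884 and 581 CPM in the controls and 1015 and 801 CPM under siFOXA1.1 and overlapped them. KRT6A and KRT6B transcripts shared no stretch of 75 bases with another gene in their last 500 bases, where the kit reads. KRT14 shared 3.29% and KRT16 3.76% of such stretches with another locus, and the other 6 members shared 0%.

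The remaining SCaBER keratins did not pass the test under siFOXA1.1. KRT14 had 785, 448, 565 and 379 CPM in the controls and 987 and 506 CPM under siFOXA1.1 (0.51 ± 0.28, adjusted p = 0.334). With the replicate block it was called (0.47, adjusted p = 0.0488), and without replicate 2 of siFOXA1.1 it was too (0.94, adjusted p = 0.00153), but without replicate 1 the change was -0.11. KRT5 had 655, 695, 533 and 421 CPM in the controls and 359 and 481 CPM under siFOXA1.1 (-0.41 ± 0.18, adjusted p = 0.193), and was called without replicate 2 of siFOXA1.1 (-0.59, adjusted p = 0.0483). Without that library 4 keratins were called in place of 2. KRT13 was at 1.56 to 24.5 CPM in the controls and 1.88 and 8.90 CPM under siFOXA1.1, KRT15 at 19.9 to 83.6 CPM and 25.2 and 28.3 CPM, and KRT16 at 13.1 to 52.1 CPM and 21.5 and 55.1 CPM.

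Under siFOXA1.2 in SCaBER, 0 of 8 keratins were called by edgeR, where 0.0373% of all genes were. By DESeq2 0 were called too, and 0 had an unadjusted p under 0.05 (5.24% of all genes had). KRT17 was at 1159 and 1033 CPM and KRT6B at 232 and 124 CPM, each overlapping the controls. Directly compared, KRT17 was higher under siFOXA1.1 than under siFOXA1.2 by 1.64 ± 0.22 (adjusted p = 0.000406), the 1 keratin of 8 called where 4.13% of all genes were. KRT6B differed by 1.21 ± 0.34 and just missed the threshold (adjusted p = 0.0613). It passed with the replicate block (1.21, adjusted p = 0.00204), which brought the count to 2. KRT6B also passed with each of 6 of the 8 libraries left out in turn, and without siFOXA1.1 replicate 2 the count was 3.

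**Figure D4:**
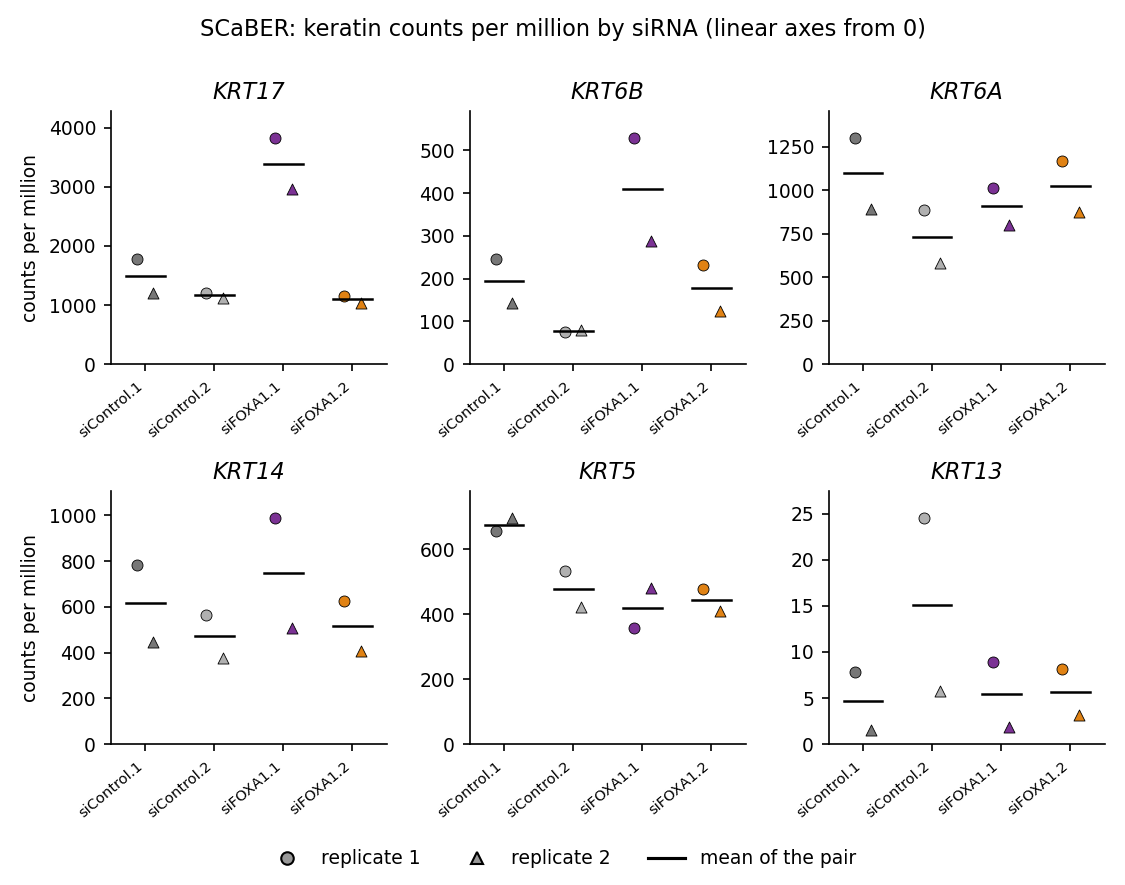
CPM of 6 keratins in the 8 SCaBER libraries by siRNA (linear axes from 0), circles for replicate 1, triangles for replicate 2 and a bar at the mean of the pair. KRT17 stands at 2962 and 3821 under siFOXA1.1 and at 1033 to 1784 elsewhere, KRT6B differs between the control siRNAs as well, and replicate 1 lies above replicate 2 for KRT13 and KRT14 under each siRNA.

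KRT6B also differed between the controls in SCaBER, with 245 and 142 CPM under siControl.1 against 74.2 and 79.1 CPM under siControl.2 and no overlap. The difference of 1.33 ± 0.35 did not pass the test (adjusted p = 0.308), but it did so with the replicate block (1.24, adjusted p = 0.0168), without siControl.1 replicate 2 (1.68) and without either siFOXA1.1 library (1.33). By the edgeR test 0 of 8 keratins were called between the controls, where 0.0671% of all genes were. With the block 1 was called, as 1 was by DESeq2, and 4 had an unadjusted p under 0.05 (6.35% of all genes had). Both siFOXA1.1 libraries lay above the higher control. In the pooled comparison of targets, 0 of 8 keratins were called by edgeR and 0 by DESeq2 (0.0084% of all genes were by edgeR), and 3 had an unadjusted p under 0.05 (8.9% of all genes had), with 1.15 ± 0.42 for KRT6B (adjusted p = 0.484) and 0.79 ± 0.35 for KRT17 (adjusted p = 0.541).

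**Figure D5:**
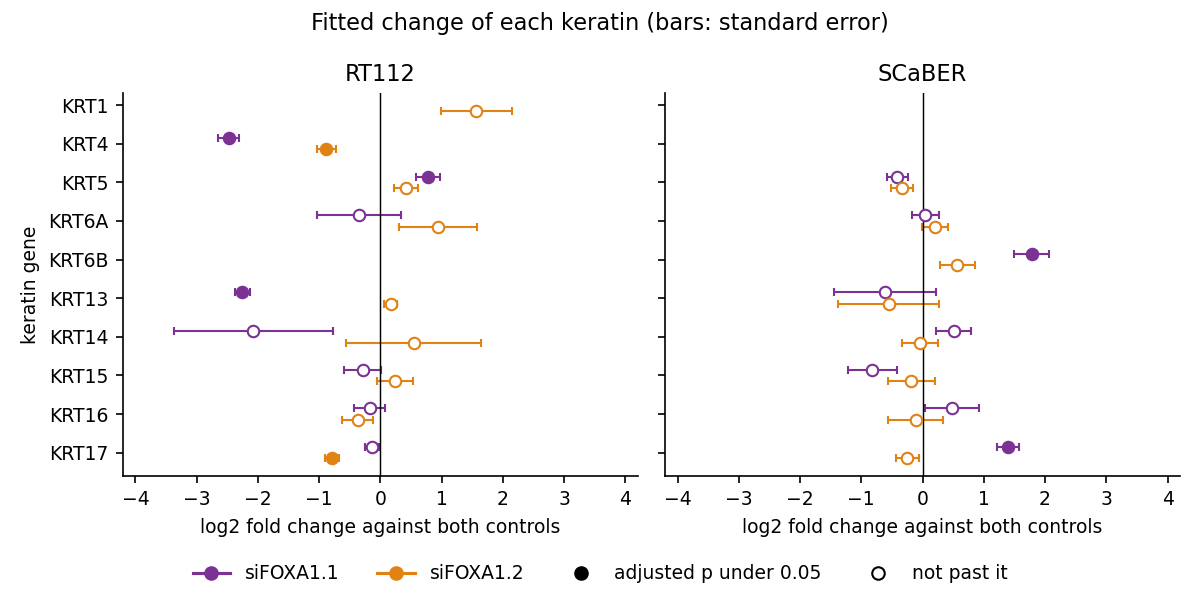
Fitted log2 fold change of each keratin against both controls for siFOXA1.1 (purple) and siFOXA1.2 (orange) in RT112 and SCaBER, with the standard error as bars and filled points for adjusted p under 0.05. KRT4 is filled for both siRNAs in RT112 and KRT17 is filled on the left of 0 in RT112 (siFOXA1.2) and on the right in SCaBER (siFOXA1.1). No point is drawn for KRT1 under siFOXA1.1 in RT112, where its libraries were at 0, or for genes not tested.

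Whether the siFOXA1.1 change differed between the lines was tested on all 16 libraries for the 7 keratins above the floor in both lines. The difference passed for 2 of the 7, where 2.59% of 15464 genes passed. For KRT17 the log2 change in RT112 minus that in SCaBER was -1.55 ± 0.23 (adjusted p = 0.000713). For KRT5 it was 1.17 ± 0.29 (adjusted p = 0.0357), but this call was lost without RT112 siFOXA1.1 replicate 2 (0.62, adjusted p = 0.321) and by limma on log2(TPM + 1) (0.84, adjusted p = 0.193). With the replicate block 4 of the 7 passed, among them KRT13 (-1.68, adjusted p = 4.86e-05; -1.58 ± 0.70 and adjusted p = 0.287 without the block) and KRT14 (-2.57, adjusted p = 0.0285; -2.62 ± 0.89 and adjusted p = 0.138 without it). The count was also 4 without replicate 1 of either SCaBER control or without SCaBER siFOXA1.1 replicate 2. With 1 library left out, the KRT13 difference ranged from -2.38 to -0.11 (adjusted p up to 0.99989), the latter without SCaBER siFOXA1.1 replicate 1, and that of KRT14 was -1.60 (adjusted p = 0.371) without RT112 siFOXA1.1 replicate 1. In SCaBER KRT13 had only 10 to 151 counts in the controls. For siFOXA1.2, 0 of 7 passed by edgeR and 0 by DESeq2, 2 had an unadjusted p under 0.05 (5.83% of all genes had), and 0.0453% of all genes passed by edgeR.

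In SCaBER some keratin levels went with the replicate number. The share of all genes that did so was not computed, so this is not read as particular to keratins. KRT6A, KRT13, KRT14, KRT16 and KRT17 were higher in replicate 1 than in replicate 2 under each of the 4 siRNAs. The ratio of the means was 4.00 for KRT13 (2.58 to 5.02 over the siRNAs), 2.10 for KRT16, 1.70 for KRT14, 1.38 for KRT6A and 1.26 for KRT17. KRT6B and KRT15 were higher in replicate 1 under 3 of the 4 siRNAs, and KRT5 under 2 of the 4. In RT112 only KRT4 (ratio of means 1.29) and KRT13 (1.19) were higher in replicate 1 under all 4 siRNAs.

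Over the 8 RT112 libraries, log2(CPM + 1) of KRT4 and KRT13 went together with Pearson's r = 0.9075, and over the 8 SCaBER libraries that of KRT6B and KRT17 with r = 0.83. Both pairs are of genes called together under siFOXA1.1 in the same libraries, so the coefficients add no separate support to those calls. The pairs did not stand alone, since KRT1 and KRT13, also called together, had r = 0.905 in RT112. In SCaBER KRT13 and KRT16 had a higher r of 0.852. These coefficients describe libraries that share siRNAs and batches. Over all 16 libraries, each centred on the mean of its line, the genes most like KRT4 among 11203 genes were PALM (r = 0.976), C11orf53 (0.967) and HS6ST3 (0.956). Those most like KRT13 were NDUFA10 (0.914), RPS3 (0.905) and CBY1 (0.901), and those most like KRT17 were SLC16A3 (0.883), RPS6KC1 (0.872) and PPP2R3C (0.854). GJA1 (0.917) was the gene most like KRT6A and TMBIM1 (0.881) was among the 3 most like KRT6B. KRT4 was under the floor in every SCaBER library and KRT6B in every RT112 library. Their coefficients therefore rest almost wholly on the libraries of the other line.

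The simple keratins form the filaments of single-layered and luminal epithelium. Under siFOXA1.1 in RT112, where 29.1% of all genes were called, 3 of the 4 tested were lower and 0 higher (median log2 change -0.60): KRT7 (-0.79 ± 0.09, adjusted p = 9.4e-07), KRT18 (-0.74 ± 0.09, adjusted p = 2.41e-06) and KRT19 (-0.47 ± 0.08, adjusted p = 7.68e-05). Under siFOXA1.2 only KRT7 was lower (-0.43 ± 0.08, adjusted p = 0.00956), and this call was lost by limma on log2(TPM + 1) (adjusted p = 0.11) and without siFOXA1.2 replicate 2 (adjusted p = 0.0836). KRT7 also differed between siControl.1 and siControl.2 in RT112 (0.52 ± 0.10, adjusted p = 0.0049). In SCaBER under siFOXA1.1 only KRT18 was lower (-0.91 ± 0.17, adjusted p = 0.00298). KRT7 was at 1957 ± 381 CPM in the RT112 controls and 20.8 ± 7.85 CPM in the SCaBER controls (SD, n = 4 each). Of the other keratins of stratified tissue, 6 of 14 were tested in RT112, and under siFOXA1.1 1 was higher and 2 lower. KRT80 rose from 178 ± 98.8 CPM (SD, n = 4) to 380.3 ± 15.3 CPM (SD, n = 2), a change of 1.41 ± 0.14 (adjusted p = 2.7e-07). KRT80 also differed between the controls, with 263 CPM on average under siControl.1 and 92.9 CPM under siControl.2 (1.56 ± 0.17, adjusted p = 1.77e-05).

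Keratin filaments end on desmosomes between cells and on hemidesmosomes at the basement membrane. Of 11 desmosome genes tested in RT112 under siFOXA1.1, 2 were higher and 3 lower, 5 of 11 against the 29.1% of all genes called, with a median log2 change of -0.01. DSP, the desmoplakin that ties keratin to the plaque, fell by 1.59 ± 0.12 (adjusted p = 7.53e-09), and DSC3, a desmosomal cadherin of basal cells, fell by 1.91 ± 0.36 (adjusted p = 0.000359) but was higher under siFOXA1.2 (1.23 ± 0.29, adjusted p = 0.0347). Of the 9 hemidesmosome and basement membrane laminin genes, 1 was higher and 3 lower against the same 29.1%, and ITGB4 fell by 0.77 ± 0.14 (adjusted p = 0.000401). In SCaBER under siFOXA1.1, 2 of these 9 were higher and 0 lower (7.87% of all genes were called), with LAMB3 at 1.28 ± 0.22 (adjusted p = 0.00175), and 1 of 11 desmosome genes, DSC2, was higher (1.04 ± 0.20, adjusted p = 0.00457).

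Among 11 tested transcription factors known to act on epidermal keratin genes, 2 were higher and 3 lower in RT112 under siFOXA1.1, beside 29.1% of all genes called. TP63, the master factor of basal stratified cells, had 13.3 CPM on average in the controls and 2.06 CPM under siFOXA1.1 (-2.54 ± 0.52, adjusted p = 0.000938). KLF5 fell by 1.66 ± 0.15 (adjusted p = 8.38e-08). The 2 called higher by edgeR were ZNF750 (1.52 ± 0.49, adjusted p = 0.0232) and TFAP2C (0.46 ± 0.14, adjusted p = 0.014). Under siFOXA1.2, 1 of the 11 was lower and 0 higher, where 1.78% of all genes were called. In SCaBER 0 of 12 passed by edgeR under siFOXA1.1 (7.87% of all genes did) or siFOXA1.2 (0.0373%).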

How the data were processed

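RNA of 16 libraries of the cell lines RT112 and SCaBER was sequenced from transcript 3' ends with single-end reads. Per the labels and the submitters' processing notes, the authors trimmed reads with TrimGalore 0.6.2 (minimum quality 20, minimum length 10), aligned them with STAR 2.6.1a to hg38 with GENCODE 29 and deposited raw counts per gene, made by STAR, and TPM values, which divide by gene length. Counts were tested with edgeR 4.0.16 in R 4.3.3 (quasi-likelihood test, TMM factors, the default filter on low counts, Benjamini-Hochberg adjustment over all genes tested, threshold 0.05). Each line was fitted on its 8 libraries, the lines were compared under siControl, and the difference of changes between lines was fitted on all 16. Standard errors were derived from the F statistic. CPM used library totals, and 3 counts per library were taken as the floor. Intervals and floors cover counting error only. The code was tested on simulated counts.

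Alternatives were DESeq2 1.42.0, library totals and RLE factors in place of TMM, no filter, limma 3.58.1 on log2(TPM + 1), the replicate number as a block, and leaving out each library in turn. The labels call the number an experiment batch replicate, which pairs the libraries; same-numbered libraries had correlated deviations of -0.0127 to 0.0156 in RT112 and 0.0152 to 0.211 in SCaBER. The keratins and the gene lists were chosen with earlier results of these data known. Named were all 10 keratins, FOXA1, at most 4 genes per list and comparison (those with the largest changes past the threshold), and the 3 genes most like each keratin. The study's methods name another build (hg19), so positions come from RefSeq tables of GRCh38.p14 only, and shared stretches were looked for in GENCODE transcripts lifted to GRCh37. Some single-gene results are not reported here.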

Additional observations from a re-analysis of the deposited data

Results flagged for a closer look

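Among the 4 SCaBER control libraries, KRT17 stood at 1784 CPM in siControl.1 replicate 1, far above the other 3 at 1125 to 1205 CPM, with a gap to the nearest that was 0.878 of the whole range, past Dixon's limit for 4 samples. Chance alone marks about 1 in 20 such groups. Each keratin above the floor was searched in each line and target, and no other group was marked. Both siFOXA1.1 libraries of SCaBER, at 3821 and 2962 CPM, lay above the 1784 CPM of that control library. The siFOXA1.1 change of KRT17 differed between the lines by -1.55 (RT112 minus SCaBER, log2), and that of KRT5 by 1.17, both by a test of the difference itself. For KRT5 the difference was 0.62 (adjusted p = 0.321 by edgeR) without RT112 siFOXA1.1 replicate 2.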

How the results depend on the processing

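For the 59 gene results, 326 of 354 values under another tool, scaling, filter, unit or block kept their direction and side of the threshold, as did 452 of 504 values with 1 library left out. KRT4 and KRT13 under siFOXA1.1 in RT112 and KRT17 and KRT6B under siFOXA1.1 in SCaBER were called in every one of these fits. Counts of keratins called moved as follows; unless stated, the cause was not tested. With limma on TPM, siFOXA1.2 in RT112 gave 1 in place of 2 and the siFOXA1.1 difference between lines 1 in place of 2. Without the filter, the RT112 controls gave 1 and the pooled RT112 targets 1 in place of 0, siFOXA1.1 against siFOXA1.2 in SCaBER 2 in place of 1, the SCaBER controls 1 and the pooled SCaBER targets 2 in place of 0, and the difference between lines 4 in place of 2. With DESeq2 the pooled RT112 targets gave 1, siFOXA1.1 against siFOXA1.2 in SCaBER 2 and the SCaBER controls 1. With the replicate block the RT112 controls gave 1, siFOXA1.1 against siFOXA1.2 in SCaBER 2, the SCaBER controls 1 and the difference between lines 4; beside the calls given with these results (KRT13, KRT14, KRT6B and KRT15) the block changed no other call. With 1 library left out, counts ranged over 0 to 2 (RT112 controls), 2 to 4 (siFOXA1.1 in SCaBER), 1 to 3 (siFOXA1.1 against siFOXA1.2 in SCaBER), 0 to 1 (SCaBER controls), 2 to 4 (difference between lines), 8 to 10 (between lines under siControl), 2 to 3 (siFOXA1.2 in RT112) and 4 to 5 (siFOXA1.1 against siFOXA1.2 in RT112), and the change of KRT14 under siFOXA1.1 in SCaBER over -0.11 to 0.94. An arm left with 1 library was assumed to vary like the others. In limma on TPM the median of all genes under siFOXA1.1 in RT112 shifted by -0.25; KRT17 was then called at -0.45 (adjusted p = 0.0217), or -0.18 relative to that median. Depth limits KRT1 and KRT4 in SCaBER, KRT6B and KRT14 in RT112, and FOXA1 in SCaBER.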

Other observations

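The cornified envelope is the protein shell of the outermost epidermal cells. Of 18 of its genes listed, 9 were tested in RT112, and under siFOXA1.1 2 were higher and 1 lower, a share near the 29.1% of all genes called. SPRR3, a small proline-rich envelope protein of oesophagus, averaged 87.7 CPM in the controls, 168 CPM under siFOXA1.1 (1.06 ± 0.17 SE on the log2 scale, adjusted p = 5.87e-05 by edgeR) and 36.3 CPM under siFOXA1.2 (-1.25 ± 0.19, adjusted p = 0.000601). CSTA, the protease inhibitor cystatin A, fell under siFOXA1.1 by 1.76 ± 0.28 (adjusted p = 7.41e-05 by edgeR), from 61.9 to 16.2 CPM. In SCaBER 0 of 11 tested were called by edgeR under siFOXA1.1 (7.87% of all genes were) or siFOXA1.2 (0.0373%).

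Of 7 tested luminal markers in RT112, 5 were lower and 1 higher under siFOXA1.1 (29.1% of all genes were called) and 2 were lower under siFOXA1.2 (1.78%). FOXA1, the siRNA target, is on this list and was among the 5 lower, a fall that the design set in advance. Of 6 tested basal markers other than keratins, 2 were higher and 1 lower under siFOXA1.1, and 3 were higher and 0 lower under siFOXA1.2. CD44, an adhesion receptor used as a basal marker, averaged 103 CPM in the RT112 controls and 247 CPM under siFOXA1.2 (1.33 ± 0.15, adjusted p = 3.02e-05 by edgeR). CD44 (-0.71 ± 0.19, adjusted p = 0.0496) and ITGA6 (-0.63 ± 0.13, adjusted p = 0.0139), which were among these 3, also differed between siControl.1 and siControl.2 by edgeR. So did both luminal markers called lower under siFOXA1.2, ELF3 (0.62 ± 0.16, adjusted p = 0.0432) and UPK2 (1.15 ± 0.21, adjusted p = 0.00457). In SCaBER under siFOXA1.1, 1 of 6 luminal markers was lower and 0 of 7 basal markers were called, where 7.87% of all genes were. Between the lines under siControl, 8 of 11 desmosome genes and 7 of 9 hemidesmosome genes were lower in RT112, where 43.4% of all genes were called in either direction.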
